A study of Mus musculus with 4 samples.

Results

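The genes of mouse chromosome 16 were followed in their order along the chromosome in 4 clones of J558 cells. A gene was taken when its probe set carried a single symbol on the platform, when the gene lies on chromosome 16 of GRCm38, and when its mean log2(signal + 16) over the 4 arrays was at or above the median of all probe sets. Each gene stands for its brightest probe set. This gave 349 genes of the 592 measured on the chromosome, among 10475 genes above the same threshold and 18193 measured on all chromosomes. The chromosome was selected on the measured differences between the clones, since its genes lay higher in the AID-silenced clones of both pairs, so its shift is described here without a test.

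J558 is a plasmacytoma line of BALB/c mice that secretes an immunoglobulin A with a lambda light chain. In 2 AID-silenced clones a pSilencer vector carried a sequence targeting activation-induced cytidine deaminase (AID), and 2 control clones received the same vector empty. All 4 clones were also transfected with a Neo vector and selected in G418, and each contributed total RNA to 1 Affymetrix Mouse 430 2.0 array. The series arranges them as pair 1 and pair 2, each an AID-silenced and a control clone, and does not state what the members of a pair share. Each sample is a single selected clone, so silencing and the differences any 2 clones carry cannot be told apart within a pair.

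AID deaminates cytosines in immunoglobulin genes and so starts somatic hypermutation and class switching. Genes of a chromosome are as a rule not related in function, although some neighbours form families. Mouse chromosome 16 carries the immunoglobulin lambda locus, the genes orthologous to the human DiGeorge region, the interferon and IL-10 receptor cluster, and a long stretch orthologous to the human chromosome of Down syndrome.

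The promoters of 7 genes are shown because these genes were far apart in both pairs or lie beside ends placed below. Cd200, Robo1 and Dgcr2 had the highest smaller difference of the 2 pairs. Pigz and Ropn1 are the first and last genes of a stretch in which the medians of the pairs go opposite ways. Cfap298 is the first gene of a second such stretch, and Vps26c is the first gene after it. Pigz itself was higher in the AID-silenced clone of both pairs (0.66 and 0.12) and Ropn1 lower in both (-0.29 and -1.59). Each sequence holds the 250 bases before the RefSeq start of the gene in GRCm38.p6, written 5′ to 3′ on the gene's strand. Capitals mark the GC box GGGCGG and the CCAAT box, on either strand.
Cd200 (chr16:45409054-45409303, minus strand): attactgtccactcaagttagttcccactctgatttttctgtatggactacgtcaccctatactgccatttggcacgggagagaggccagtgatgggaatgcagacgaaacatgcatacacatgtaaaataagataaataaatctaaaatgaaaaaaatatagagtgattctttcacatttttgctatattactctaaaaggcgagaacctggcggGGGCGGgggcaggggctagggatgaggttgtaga
Robo1 (chr16:72662899-72663148, plus strand): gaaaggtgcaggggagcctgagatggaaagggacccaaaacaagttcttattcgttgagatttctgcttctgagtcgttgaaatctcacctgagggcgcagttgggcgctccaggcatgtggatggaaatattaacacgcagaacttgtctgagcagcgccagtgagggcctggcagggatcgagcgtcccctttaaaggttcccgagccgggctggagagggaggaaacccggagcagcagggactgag
Dgcr2 (chr16:17891729-17891978, minus strand): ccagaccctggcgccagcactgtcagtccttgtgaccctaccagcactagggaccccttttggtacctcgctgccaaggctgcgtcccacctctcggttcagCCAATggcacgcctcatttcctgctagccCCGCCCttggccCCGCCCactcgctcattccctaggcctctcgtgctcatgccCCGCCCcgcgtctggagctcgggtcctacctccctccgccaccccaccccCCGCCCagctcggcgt
Pigz (chr16:31933601-31933850, plus strand): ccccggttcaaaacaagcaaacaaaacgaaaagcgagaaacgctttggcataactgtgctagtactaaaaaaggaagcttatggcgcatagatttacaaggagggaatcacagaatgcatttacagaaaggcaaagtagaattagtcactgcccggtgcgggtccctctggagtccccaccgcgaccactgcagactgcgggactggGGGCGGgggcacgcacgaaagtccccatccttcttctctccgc
Ropn1 (chr16:34650961-34651210, plus strand): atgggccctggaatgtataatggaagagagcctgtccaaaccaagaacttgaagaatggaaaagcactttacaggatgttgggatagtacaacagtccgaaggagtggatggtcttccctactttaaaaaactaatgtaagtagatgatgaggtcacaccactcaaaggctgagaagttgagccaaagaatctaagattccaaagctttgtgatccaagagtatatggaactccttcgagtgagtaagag
Cfap298 (chr16:90934850-90935099, minus strand): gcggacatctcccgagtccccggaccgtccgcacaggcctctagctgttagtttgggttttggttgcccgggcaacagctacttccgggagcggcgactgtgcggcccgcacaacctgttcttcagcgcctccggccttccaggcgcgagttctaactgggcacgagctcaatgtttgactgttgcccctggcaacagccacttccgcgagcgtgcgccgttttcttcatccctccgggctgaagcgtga
Vps26c (chr16:94526630-94526879, minus strand): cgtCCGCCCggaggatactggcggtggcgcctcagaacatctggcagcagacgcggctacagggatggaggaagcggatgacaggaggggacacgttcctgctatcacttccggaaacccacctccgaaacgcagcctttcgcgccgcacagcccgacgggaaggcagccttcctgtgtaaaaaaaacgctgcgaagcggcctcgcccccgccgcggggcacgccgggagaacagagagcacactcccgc

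These promoters differ in base composition. Dgcr2 has 4 GC boxes, 1 CCAAT box and 17 CpG dinucleotides in its window, whereas Robo1 has neither box and 11 CpG. The window of Ropn1, a sperm flagellar protein gene, holds 2 CpG, and that of Vps26c, a subunit of an endosomal sorting complex, holds 27. Of the 349 genes, 297 had a promoter in the RefSeq table. GGGCGG, searched on both strands, was present in 56.9% of these, in 60.7% of the 8527 promoters of all genes above the signal threshold, and in 32.9% of all 27025 promoters of this length. CCAAT was present in 36.7%, 37.4% and 34.5% of the same sets, TATAAA in 5.05%, 5.84% and 13.0%, and AGCT, a hotspot sequence of AID, in 69.0%, 67.9% and 70.0%. The median number of CpG was 18 for chromosome 16, 16 for the genes above the threshold and 6 for all promoters. In these letters the chromosome 16 promoters lay close to those of the other genes above the threshold.

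Signals are MAS5 intensities on a linear scale, scaled by the authors so that each array had a 2% trimmed mean of 500, and array medians lay between 52.7 and 54.9. The 8 plasma cell markers listed were all above the threshold, with signals of 999 to 51693. Of 5 markers each of T cells, macrophages and fibroblasts, 1 of each list was above it, with summed signals of 80.0 to 203 for T cells, 312 to 462 for macrophages and 155 to 211 for fibroblasts. The silenced gene's level is not reported here. All differences below are AID-silenced minus control on the log2(signal + 16) scale, which understates differences of dim genes.

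Most chromosome 16 genes lay higher in the AID-silenced clone, in each pair. The median difference was 0.30 in pair 1 and 0.27 in pair 2, against 0.00 and -0.01 for all 10475 genes. The AID-silenced clone was higher for 276 of the 349 genes in pair 1, or 79.1%, where 50.1% of all genes were higher, and for 237 in pair 2, or 67.9%, against 49.1%. In both pairs 191 genes were higher, or 54.7%, beside 26.7% of all genes, and 27 were lower, beside 27.5%. Both AID-silenced clones lay above both control clones for 131 genes and below them for 15, where the shares of all genes were 14.3% and 14.4%. These values chose the chromosome and nothing is read from their excess.

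Chromosome 18 was the most like chromosome 16. Its 261 genes had medians of 0.08 in pair 1 and 0.36 in pair 2, with 59.4% and 81.6% above 0. Higher in both pairs were 50.6% of its genes and lower in both 9.58%, beside 54.7% and 7.74% on chromosome 16, so by this count the 2 chromosomes were close. Chromosome 9 had medians of 0.15 and -0.15. Over the 19 other chromosomes with genes above the threshold, medians ran from -0.08 to 0.15 in pair 1 and from -0.15 to 0.36 in pair 2. In pair 1 the chromosome 16 median was above those of all 19, and in pair 2 it was above all except chromosome 18.

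**Figure D1:**
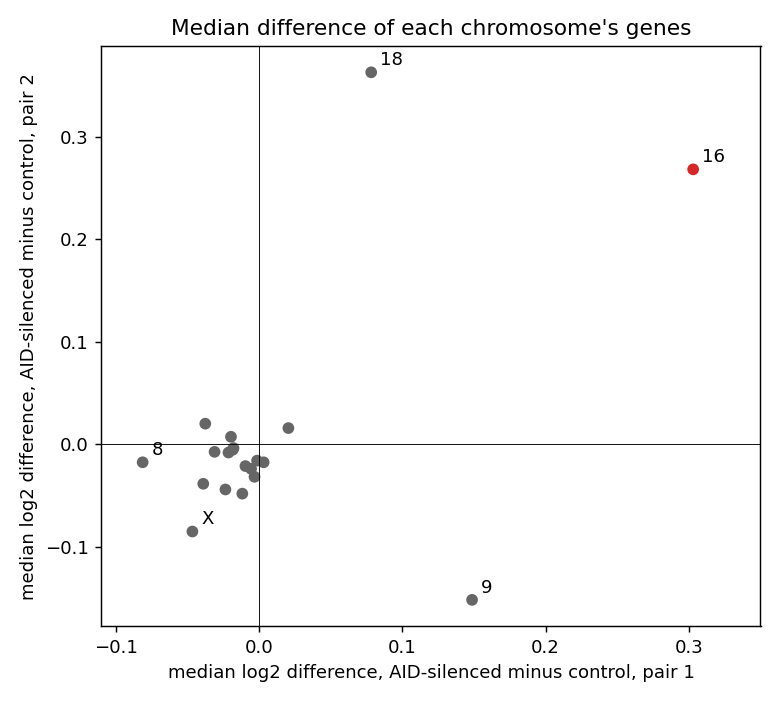
Median log2 difference (AID-silenced minus control) of the genes of each chromosome above the signal threshold, pair 1 on the horizontal and pair 2 on the vertical axis, 1 point per chromosome. Chromosome 16, in red, lies at 0.30 and 0.27, chromosome 18 at 0.08 and 0.36, and chromosome 9 at 0.15 and -0.15.

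The same arrays hold measurements that did not choose the genes, although these are not further replicates. The 373 other probe sets of the same genes above the threshold had median differences of 0.31 in pair 1 and 0.25 in pair 2, against -0.01 and 0.04 for 8886 such probe sets of all genes. The 243 dimmer genes of the chromosome, those below the threshold, had medians of -0.01 in each pair, and all dimmer genes had -0.02. The 126 other probe sets of the 349 genes that lay below the threshold had medians of 0.15 and 0.11, with 60.3% above 0 in pair 1 and 56.3% in pair 2. The dimmer genes as a set therefore showed no shift, whereas dim probe sets of the 349 genes lay somewhat above 0. Probe sets of a gene did not always go the same way. For the 191 genes higher in both pairs, 152 of 204 other probe sets above the threshold were also higher in both and 5 were lower in both, those of Coro7, Itsn1, Ppp1r2, Tomm70a and Vps8. For the 27 genes lower in both, 12 of 21 were also lower in both and 4 were higher, those of Hic2, Mrpl39, Ncbp2 and Nfkbiz. When the 349 genes were ranked by level and divided into 3 groups with median signals of 118, 994 and 3216, the median difference was 0.21, 0.36 and 0.34 in pair 1 and 0.26, 0.32 and 0.24 in pair 2. The interquartile range of the differences fell with level, from 0.73 to 0.38 in pair 1 and from 0.86 to 0.69 in pair 2. Across the 349 genes, which share arrays and neighbours, the differences of the 2 pairs correlated with r = 0.238 and rho = 0.124, so a gene's difference in one pair told little of its difference in the other.

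At the threshold on the mean, a signal of 49.4, the members just inside were Ropn1, with differences of -0.29 in pair 1 and -1.59 in pair 2, Ephb3 (-0.89 and 0.08) and Robo1 (3.16 and 3.43). Just outside were Dvl3 (0.11 and 1.55), 4930451G09Rik (0.51 and 0.52) and Gm15743 (0.74 and 1.84). Robo1 passed only through its level in the AID-silenced clones.

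The shift did not run evenly along the chromosome, and its ends differed between the pairs. A median over 15 neighbouring genes was above 0 at 318 of 335 positions in pair 1 and at 269 in pair 2. In pair 1 it was lowest, at -0.25, around Txndc11, and highest, at 0.66, around Cip2a. Its longest run at or below 0 reached from Tvp23a to Mrtfb. In pair 2 it was highest, at 0.72, around Hes1, and lowest, at -0.43, around Smim11, and its longest run at or below 0 reached from Ifnar2 to Ttc3. Another run of pair 2, of 29 positions against 31, reached from Ncbp2 to Hacd2. The low stretch of pair 1 therefore lay near the start of the chromosome, and those of pair 2 in its middle and near its end.

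Ends were placed with step profiles that minimise absolute deviations, and 2 breaks with at least 15 genes between them put the ends of pair 1 between Nagpa and Alg1 and between Dnm1l and Top3b. The 3 segments had medians of 0.35, 0.01 and 0.34. In pair 2 the 2 breaks lay between Pigz and 0610012G03Rik and between Ropn1 and Ccdc14, with medians of 0.42, -0.38 and 0.15. With 1 break, pair 1 stepped from 0.17 to 0.34 between Hic2 and Tmem191c, and pair 2 from 0.42 to 0.09 between Meltf and Pigz. The single break of pair 1 moved across much of the chromosome with the processing, as given in the closing section, and is not used further.

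An information criterion allowing up to 6 breaks and at least 10 genes a segment, added after these fits were seen, kept the same 2 breaks in pair 1. It placed 5 in pair 2, between Vps8 and 1300002E11Rik, Meltf and Pigz, Ropn1 and Ccdc14, Urb1 and Cfap298, and Ttc3 and Vps26c. When the shortest segment was 15 genes, the last of these fell between Pigp and Ttc3. The choices differed in strength, a lower criterion being preferred. With the 2 breaks of pair 1 the criterion changed by only -3.28 against no break. With 1 and 3 breaks it changed by 2.87 and 2.83 there. In pair 2 it changed by -52.5 with 5 breaks and by -51.4 with 4, so 5 were preferred over 4 by little. On the 19 other chromosomes the same criterion placed no break on 13 in pair 1 and no break on 13 in pair 2. The highest numbers there were 4, on chromosome 8 in pair 1, and 2, on chromosomes 8, 9 and 15 in pair 2.

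**Figure D2:**
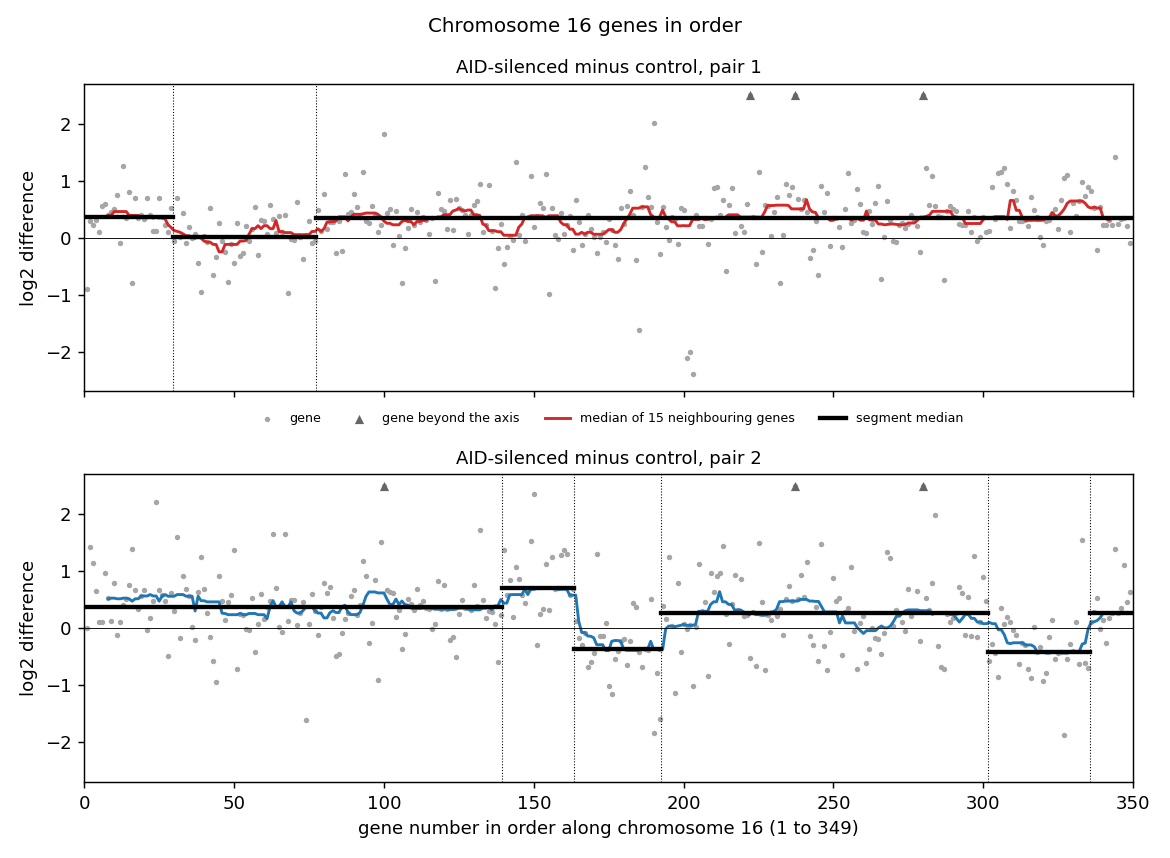
Log2 difference (AID-silenced minus control) of the 349 chromosome 16 genes against their order along the chromosome, pair 1 above and pair 2 below. Points are genes, the coloured line is the median of 15 neighbours, black bars are segment medians, dotted lines are breaks, and triangles mark genes beyond the axis. The bars of pair 1 lie at 0.35, 0.01 and 0.34, and those of pair 2 fall below 0 in 2 stretches, at -0.37 and -0.41.

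Clones of the same kind were also compared with each other. The control clone of pair 2 minus that of pair 1 had a median of -0.08 over the chromosome and 3 breaks, between Meltf and Pigz, Ropn1 and Ccdc14, and Nrip1 and Cxadr, with segment medians of -0.21, 0.37, -0.11 and 0.47. The first 2 of these are also breaks of pair 2, whose difference uses the same control clone. Between the control clones the criterion preferred 3 breaks to 4 by little, at -48.7 and -48.3 against no break. The AID-silenced clone of pair 2 minus that of pair 1 had a median of -0.07 and no break by the same criterion. The stretches in which the pairs disagree were placed on differences that use the same clones. The values there are therefore a description and no further evidence. In both stretches the control clones differed, by medians of 0.37 from Pigz to Ropn1 and 0.66 from Cfap298 to Ttc3. The AID-silenced clones differed there too, by -0.14 and -0.30, although no break was placed between them, and their median of 15 neighbours reached -0.74 around Cblb. For all genes, the medians of these comparisons were -0.06 and -0.07.

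**Figure D3:**
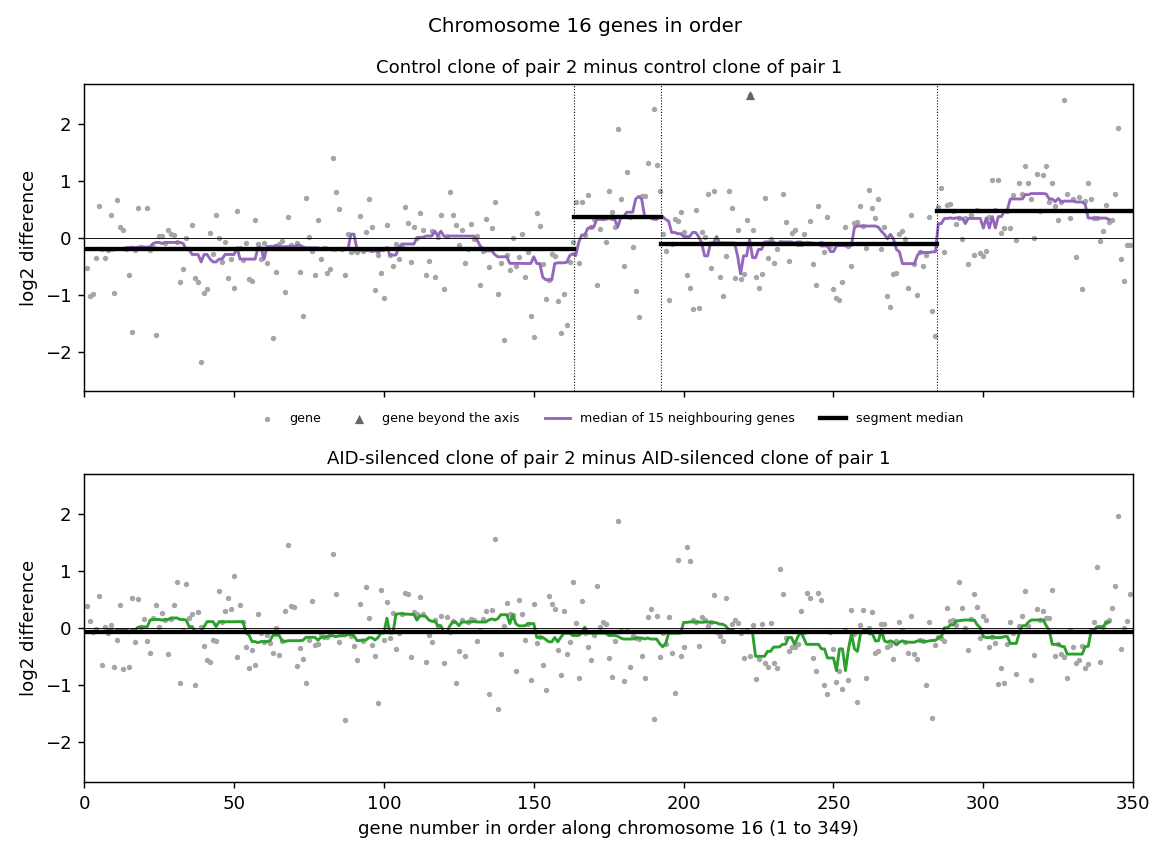
Log2 difference between clones of the same kind for the 349 genes in order, the control clones above and the AID-silenced clones below, each as pair 2 minus pair 1, with lines and bars as in the plot of the pairs. The control clones step from -0.21 to 0.37, -0.11 and 0.47, and the AID-silenced clones have a single segment at -0.07.

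When the pairs were crossed, the AID-silenced clone of pair 2 minus the control clone of pair 1 had 2 breaks, between Usp7 and 1810013L24Rik and between Abcc1 and Snai2, with medians of 0.37, -0.10 and 0.26. The AID-silenced clone of pair 1 minus the control clone of pair 2 had 3, between Dlg1 and Meltf, Kpna1 and Wdr5b, and Nrip1 and Cxadr, with medians of 0.45, -0.14, 0.54 and -0.02. Each comparison shares its clones with those above and gives no further evidence. From Alg1 to Dnm1l, the low stretch of pair 1, the first crossed comparison had a median of -0.05, beside -0.06 for all genes. The second had -0.19 from Pigz to Ropn1 and -0.08 from Cfap298 to Ttc3, beside 0.06 for all genes. No break of the second was placed at the ends of the latter stretch. Which clone the stretches belong to was not tested.

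The union of the breaks of the 2 pairs divides the chromosome into 8 regions. The first, Mefv to Nagpa, holds 29 genes and had medians of 0.35 in pair 1 and 0.53 in pair 2, with 23 genes higher in both pairs and 0 lower in both. It contains Slx4, a scaffold of DNA repair nucleases, with signals of 461 in control 1 and 357 in control 2, against 703 and 713 in silenced clones 1 and 2. Crebbp, a histone acetyltransferase, had 1793 and 2353 in the controls against 2464 and 2570. Glis2, a zinc finger transcription factor, had 149 and 164 against 378 and 224. The controls and the silenced clones of pairs 1 and 2 are given in this order from here on. By the brightest probe set of each of these 3 genes, both AID-silenced clones lay above both controls. In every other probe set of Crebbp and Glis2 above the threshold the groups overlapped. Pair 2 was above 0 in each of those, whereas pair 1 went both ways for Crebbp. Slx4 has no other probe set. Mefv, the gene of pyrin and the first of the 349, had 82.2 and 51.5 against 36.2 and 52.2, so its groups overlapped.

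The second region, Alg1 to Dnm1l, is the low stretch of pair 1. Its 48 genes had medians of 0.01 in pair 1 and 0.31 in pair 2, and 20 of them were lower in pair 1 and higher in pair 2. The median log2 level of the region was 10.37 in the control clone of pair 1 and 10.31 in its AID-silenced clone, and 9.89 and 9.87 in the clones of pair 2. These medians of levels do not reflect the differences taken gene by gene. In pair 2, 37 of the 48 genes were higher in the AID-silenced clone. As pair 2 minus pair 1, the median difference was -0.22 between the controls and -0.10 between the AID-silenced clones. Mcm4, a subunit of the replicative helicase, had 4786 and 4266 in the controls against 4634 and 6016. Usp7, a deubiquitinase, had 3659 and 4286 against 3625 and 4335, differences of -0.01 and 0.02. Tnfrsf17, the BCMA receptor of plasma cells, had 1869 and 999 against 1373 and 2620, so silencing went with a lower signal in pair 1 and a higher one in pair 2. The 51 other probe sets of the region's genes had medians of -0.03 and 0.44.

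The third region, Top3b to Vps8, was shifted alike in both pairs. Its 62 genes had medians of 0.35 in pair 1 and 0.34 in pair 2, with 46 higher in both and 5 lower in both. At its first end, Dnm1l, a mitochondrial fission GTPase, had 5431 and 3436 in the controls against 5232 and 4263. Top3b, a topoisomerase and the next member, had 949 and 1185 against 1327 and 1096. In pair 1 these neighbours differed by -0.05 and 0.48, and in pair 2 by 0.31 and -0.11. Other Dnm1l probe sets above the threshold were higher in both pairs, at 0.21 and 0.64 and at 0.14 and 0.65. The sign of Dnm1l in pair 1 therefore depended on the probe set. The other Top3b probe set above the threshold had 0.29 and -0.03.

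The fourth region, 1300002E11Rik to Meltf, had its larger median in pair 2, at 0.71, against 0.20 in pair 1. Of its 24 genes 16 were higher in both pairs and 0 lower in both. The median log2 level was 10.68 in control 1, 10.30 in control 2, 11.10 in silenced clone 1 and 11.01 in silenced clone 2. The control clone of pair 2 gave the lowest of the 4 values for 18 of the 24 genes. The region was cut on these same values, and no share over all genes is given beside this count. The 25 other probe sets had medians of 0.48 and 0.31, so they did not show the larger difference in pair 2.

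In the fifth region, Pigz to Ropn1, the pairs went opposite ways. Its 29 genes had a median of 0.24 in pair 1 and -0.37 in pair 2, and 18 were above 0 in pair 1 and below 0 in pair 2. The median log2 level was 10.34 in control 1, 10.85 in control 2, 10.59 in silenced clone 1 and 10.32 in silenced clone 2. The control clone of pair 2 was the highest of the 4 for 17 of the 29 genes. This count too comes from values that cut the region and has no share over all genes beside it. The 33 other probe sets of these genes had medians of 0.22 and -0.37, and between the control clones they differed by 0.70. Over the groups the median difference was -0.31 to 0.10 when each clone was left out in turn, so its sign depended on the clones included.

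Itgb5, an integrin beta subunit, had the largest differences of the region. Its signals were 882 in control 1, 4267 in control 2, 3599 in silenced clone 1 and 1181 in silenced clone 2, which gave differences of 2.01 and -1.84. Its 3 other probe sets went the same ways, from 1.37 to 1.65 in pair 1 and from -2.07 to -1.60 in pair 2. Umps, the last enzyme of pyrimidine synthesis, had 2754 and 6652 in the controls against 3336 and 3858. Pak2, a kinase acting in the cytoskeleton, had 1973 and 3321 against 2605 and 2060. Zfp148, a zinc finger transcription factor, had 998 and 2482 against 1651 and 1895. By the brightest probe set of these 4 genes the control clone of pair 1 was lowest and that of pair 2 highest. Among other Zfp148 probe sets above the threshold, 1 had 80.1 and 244.2 against 310.5 and 347.5. Another had 718.7 and 877.4 against 903.6 and 704.3. Neither kept this order, whereas the remaining ones of Zfp148 and those of Itgb5, Umps and Pak2 did.

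Tfrc, the transferrin receptor by which cells take up iron, lies in the same region and differed between the pairs rather than the groups. Its signals were 5172 and 19290 in the controls against 3991 and 14708. Both clones of pair 2 were above both of pair 1, by 1.90 in the controls and 1.88 in the AID-silenced clones. Within the pairs the differences were -0.37 and -0.39. At the end of the region, Ropn1 had 52.5 and 104 in the controls against 40.1 and 23.7, and Ccdc14, the first gene beyond, had 233 and 244 against 346 and 325.

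The sixth region, Ccdc14 to Urb1, is the longest, with 109 genes. Its medians were 0.34 in pair 1 and 0.27 in pair 2, with 68 genes higher in both pairs and 13 lower in both. It holds Cd200, Robo1, Cd47, Zbtb20 and Parp9, described below. Poglut1, an enzyme that adds glucose to Notch receptors, had 13.2 in control 1, 690 in control 2, 673 in silenced clone 1 and 474 in silenced clone 2. It was below the threshold in the control clone of pair 1 alone, and its difference was 4.56 in pair 1 and -0.52 in pair 2.

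The seventh region, Cfap298 to Ttc3, had the opposite sign in the pairs as well. Its 34 genes had a median of 0.49 in pair 1, where 33 were above 0, and -0.41 in pair 2, where 8 were. The median log2 level was 10.09 in control 1, 10.64 in control 2, 10.46 in silenced clone 1 and 10.38 in silenced clone 2. The control clone of pair 1 was the lowest of the 4 for 26 genes, and that of pair 2 the highest for 19. As before, these counts come from values that cut the region and have no share over all genes beside them. The 49 other probe sets had medians of 0.44 and -0.22, and the median over the groups ran from -0.28 to 0.39 when each clone was left out in turn.

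In this stretch Cbr3, a carbonyl reductase, had 1070 and 5799 in the controls against 2232 and 1569, differences of 1.05 and -1.88. Its neighbour Cbr1 had 1757 and 2715 against 2783 and 2031. Gart, an enzyme of purine synthesis, had 5648 and 10952 against 6879 and 7104. Chaf1b, a subunit of a chromatin assembly factor, had 885 and 1431 against 1350 and 1077. Atp5o, a subunit of the mitochondrial ATP synthase, had 12901 and 27930 against 16483 and 20956. Runx1, a transcription factor of blood cells, had 190 and 288 against 276 and 193. In each of these 6 genes the control clone of pair 1 was lowest, and that of pair 2 was highest in all but Cbr1.

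The last region, Vps26c to B230307C23Rik, has 14 genes and medians of 0.27 in pair 1 and 0.28 in pair 2, with 10 higher in both pairs. At its start Ttc3, a ubiquitin ligase and the last gene of the seventh region, had 1692 and 3315 in the controls against 3149 and 2032. Vps26c had 1275 and 2037 against 2246 and 2208. Dyrk1a, a protein kinase, had 791 and 1005 against 1138 and 1224, and Hmgn1, a nucleosome-binding protein, had 18873 and 22828 against 23448 and 25979. By these probe sets Vps26c, Dyrk1a and Hmgn1 had both AID-silenced clones above both controls. Between Dyrk1a and Hmgn1, Kcnj6 (-0.21 and 0.52), Ets2 (0.54 and -0.003) and Brwd1 (0.21 and -0.26) had opposite signs in the pairs. Psmg1, also between them, was higher in both (0.23 and 0.14). Dyrk1a has 2 other probe sets above the threshold, with 728 and 1363 against 872 and 1010 and with 866 and 1128 against 1041 and 761. In both of them the control clone of pair 2 was highest and pair 2 went below 0, at -0.43 and -0.56.

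**Figure D4:**
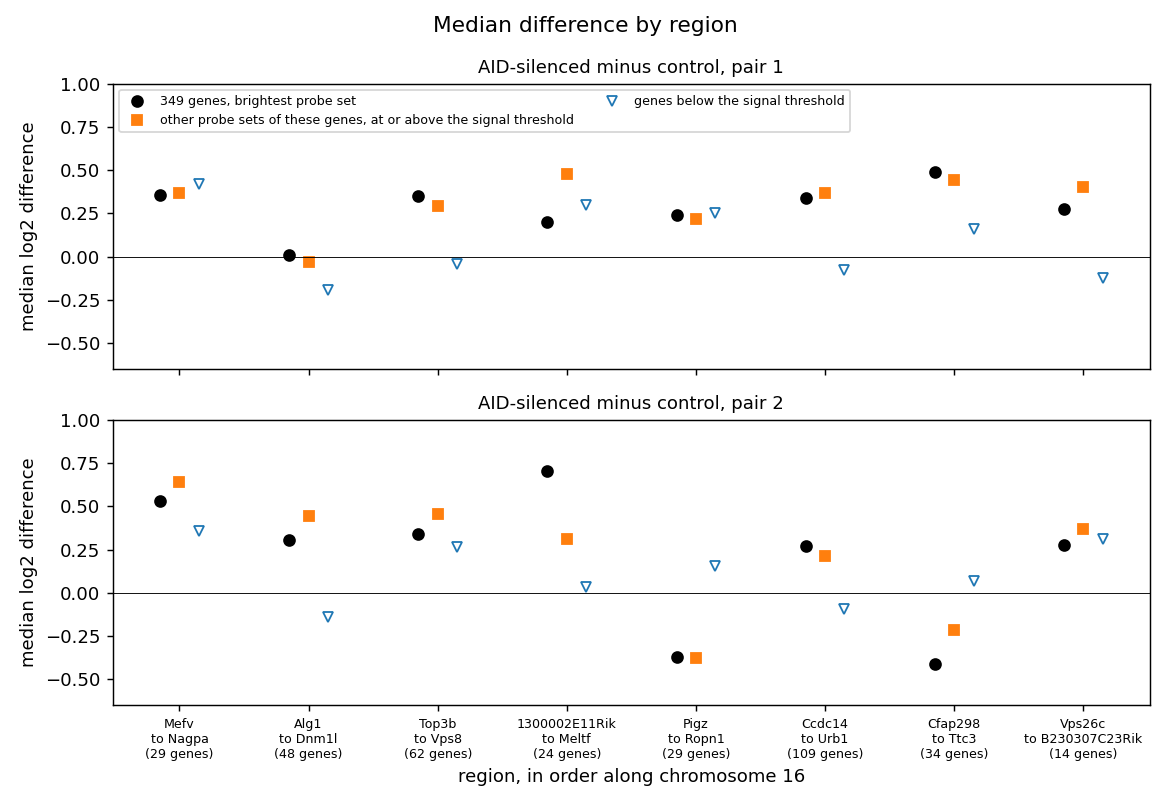
Median log2 difference (AID-silenced minus control) in the 8 regions in order along the chromosome, pair 1 above and pair 2 below, for the 349 genes, for their other probe sets above the signal threshold, and for genes below it. In pair 2 the genes and their other probe sets lie below 0 in the fifth and seventh regions, at -0.37 and -0.41 for the genes.

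Among single genes, no member passed the test of the groups (limma, adjusted p under 0.05, without the pair as a block). Over all probe sets tested 0.00888% passed, which is 2 of 22519, and 0.00444% passed as higher. At an unadjusted p under 0.05, 42 members were called, 40 of them higher, where the share over all probe sets was 3.49%, and 2.11% for higher ones. With the pair as a block, 1 member passed, Cd200, beside 0.0355% of all probe sets in either direction and 0.0178% as higher. In that fit 79 members were at an unadjusted p under 0.05, beside 7.63%, and 74 of them were higher, beside 4.58%. Without the control clone of pair 1 there were 4 calls (Dgcr2, Cd200, Robo1 and Nrip1), beside 146 probe sets or 0.648% in all, and without that of pair 2 there were 4 (Dgcr2, Poglut1, Cd200 and Robo1), beside 52 or 0.231%. In these fits the lone control is assumed to vary like the AID-silenced clones, from which alone the spread comes. Without either AID-silenced clone 0 members were called, beside 0 and 2 probe sets in all. By fold, 9 genes were at least 2-fold higher in both pairs, beside 0.563% of all genes, 1 was at least 2-fold lower in both, beside 0.449%, and 2 were so in opposite directions, beside 0.391%.

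Cd200, a membrane glycoprotein that inhibits myeloid cells through its receptor, had the largest smaller difference of the 2 pairs; in pair 1 alone Poglut1 was further apart. Its signals were 6.5 in control 1, 8.7 in control 2, 426 in silenced clone 1 and 336 in silenced clone 2. Both controls were below the signal threshold and both AID-silenced clones far above it. The difference was 4.06 ± 0.34 (SE, 2 clones a group), with a limma adjusted p of 0.084 without the pair block and 0.0392 with it. Like Robo1, Cd200 entered the fit only through its level in the AID-silenced clones, and it lies on a chromosome selected on this contrast, so its p is given as a description. Its promoter, shown above, holds 1 GC box. Robo1, a receptor for the guidance protein Slit, had 10.1 and 2.5 in the controls against 217 and 184. The difference was 3.30 ± 0.38 (SE), which did not pass (limma adjusted p = 0.207, and 0.0985 with the block). Another probe set of Robo1 above the threshold was dimmer and less far apart, with 44.4 and 44.5 against 62.6 and 53.1.

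Dgcr2, a membrane protein of the DiGeorge region, had 2122 and 1014 in the controls against 7545 and 6545. Its difference was 2.25 ± 0.36 (SE), which did not pass (limma adjusted p = 0.615, and 0.083 with the block). A second probe set of Dgcr2 had 1454 and 962 against 6007 and 4841, and the other had 1236 and 606 against 3216 and 2907. All 3 probe sets were higher in each AID-silenced clone than in either control.

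Cd47, the surface ligand by which cells inhibit phagocytosis, had 3532 and 3305 in the controls against 6587 and 9303, a difference of 1.19 ± 0.24 (SE; limma adjusted p = 0.784). Its other probe sets above the threshold, 434 and 206 against 778 and 790 and 514 and 281 against 777 and 785, were also higher. St6gal1, the sialyltransferase that caps N-glycans, had 3464 and 1331 against 7340 and 3902. Its groups were 1.31 apart, and the control clone of pair 1 came close to the AID-silenced clone of pair 2. B3galt5, a galactosyltransferase, had 128 and 228 against 367 and 623. Slc7a4, a relative of cationic amino acid transporters, had 131 and 109 against 312 and 266. By the brightest probe set of these 4 genes the AID-silenced clone of each pair was higher, and the groups did not overlap. The other St6gal1 probe set above the threshold had 1081 and 355 against 1787 and 961. There the AID-silenced clone of each pair was higher too, but the groups overlapped.

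Several transcription regulators of the chromosome were among the genes furthest apart. Zbtb20, a zinc finger repressor, had 1410 and 759 in the controls against 3133 and 2161. Etv5, an ETS factor, had 582 and 407 against 1475 and 871. Hes1, a repressor downstream of Notch, had 189 and 80.7 against 431 and 196, so its groups were separated by little. Ripply3, a transcriptional corepressor, had 412 and 213 against 820 and 656, and it was the gene of the seventh region furthest above 0 in pair 2. Camk2n2, an inhibitor of calcium/calmodulin kinase, had 141 and 71.6 against 284 and 273.

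**Figure D5:**
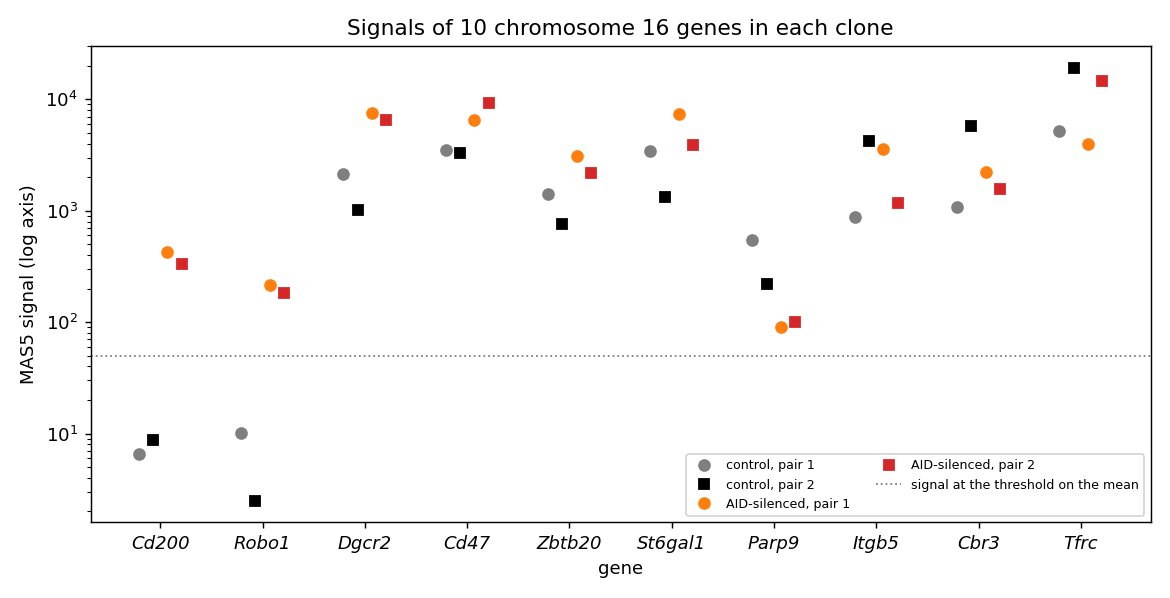
MAS5 signal of 10 chromosome 16 genes on a log axis, 1 point per clone, with circles for pair 1 and squares for pair 2; the dotted line is the signal at the threshold on the mean, 49.4. Cd200 and Robo1 lie below the line in both controls and at 184 to 426 in the AID-silenced clones, Itgb5 and Cbr3 are highest in the control clone of pair 2, and Tfrc separates the pairs.

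Fewer genes were lower in both pairs. Parp9, an ADP-ribosyltransferase induced by interferon, had 546 and 219 in the controls against 90.3 and 101, differences of -2.40 and -1.01. Its neighbours were read after their values were seen. Dtx3l, the ubiquitin ligase that partners Parp9, had 125 and 60.2 against 18.9 and 63.0, and Parp14 had 144 and 85.4 against 21.2 and 84.6. By these probe sets the AID-silenced clone of pair 1 was the only one of the 4 below the threshold. The other Dtx3l probe set above the threshold had 155 and 85.5 against 32.4 and 12.9, and so was lower in both pairs. The other Parp14 probe set was below the threshold. Mrpl39, a mitochondrial ribosomal protein, had 2854 and 2377 against 1687 and 1436, but its other probe set went the opposite way, with 1430 and 1183 against 1948 and 1691, so its direction depended on the probe set. Litaf, an endosomal protein, had 448 and 362 against 277 and 237, and Snn, which follows it among the 349 genes, had 320 and 425 against 251 and 213. Osbpl11, a lipid transfer protein, had 2522 and 950 against 809 and 708.

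The lists of chromosome 16 genes were drawn up with earlier results of these data known, and are described by counts, to be read beside the 26.7% of all genes and the 54.7% of the 349 that were higher in both pairs. Of 35 genes of the DiGeorge region, 33 were measured and 29 were above the threshold. Of these 22, or 75.9%, were higher in both pairs and 2 were lower in both, with medians of 0.41 in pair 1 and 0.35 in pair 2. All lie in the third region, where 46 of all 62 genes were higher in both pairs, with medians of 0.35 and 0.34. The list was therefore close to the region that holds it. Crkl, an adaptor of tyrosine kinase signalling, had 1437 and 1230 in the controls against 2439 and 1960. Cdc45, a helicase subunit needed to start replication, had 1542 and 1544 against 2657 and 2745. Dgcr8, the partner of Drosha in microRNA processing, had 830 and 1122 against 1011 and 1493, so its groups overlapped. Prodh, proline dehydrogenase, was lower, with 95.6 and 82.9 against 48.0 and 60.5.

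Of 88 genes of the Down syndrome region 87 were measured and 60 were above the threshold, in the sixth to eighth regions. Their median difference was 0.38 in pair 1 but 0.01 in pair 2, and the control clone of pair 2 was above that of pair 1 by a median of 0.46. Of the 60, 29 were higher in both pairs, or 48.3%, 3 were lower in both, and 27 were higher in pair 1 and lower in pair 2. Sod1, superoxide dismutase, had 11999 and 16777 in the controls against 11551 and 15015. Nrip1, a nuclear receptor corepressor, had 373 and 102 against 555 and 453, and was the last gene before the break between the control clones.

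The interferon and IL-10 receptor cluster lies within the seventh region, and all 4 of its genes were above the threshold. Ifnar2, a chain of the type I interferon receptor, had 2346 and 4727 in the controls against 5158 and 2611. Ifnar1, the other chain, had 940 and 1299 against 1807 and 1495. Il10rb, a chain of the IL-10 receptor, had 1488 and 1582 against 3320 and 2035, and Ifngr2, a chain of the interferon gamma receptor, had 284 and 321 against 320 and 346. Their differences ran from 0.17 to 1.15 in pair 1 and from -0.85 to 0.36 in pair 2. Ifnar2 alone had opposite signs in the pairs, and Ifnar1 and Il10rb had both AID-silenced clones above both controls. None passed the test.

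Of 17 immune surface molecules, 15 were measured and 6 were above the threshold. By the brightest probe set Cd200, Cd47 and Alcam were higher in both pairs, Tfrc lower in both, and Tnfrsf17 and Il1rap opposite. Other Il1rap probe sets above the threshold were higher in both pairs, at 1.05 and 0.09 and at 1.40 and 0.26. Those of Alcam were divided, with 0.09 and -0.11 in 1 and 0.64 and 0.58 in another. Of 11 immunoglobulin lambda and surrogate light chain genes 3 were measured and Iglv1, the lambda variable gene, was above the threshold. Its signals were 33679 and 44507 in the controls against 36763 and 40053, so the controls spanned the AID-silenced clones. Its other probe sets did not share this pattern, with 2800 and 743 against 3486 and 4471 and with 163 and 39.6 against 46.1 and 52.0. All 20 genes of DNA replication and repair were above the threshold, and 5 were higher in both pairs, 1 was lower in both and 14 were opposite, with medians of 0.28 and 0.07. The 5 are 25% of the list, near the share of all genes. Of 22 transcription regulators 17 were above the threshold, with 9 higher in both (52.9%), 1 lower and 7 opposite, and medians of 0.54 and 0.11. All 25 measured genes of protein synthesis, folding and turnover, of 29 listed, were above it, with 14 higher in both, 4 lower and 7 opposite, and medians of 0.12 and 0.30. The 14 are 56.0% of the list, near the share of the chromosome. In the fits on all 4 clones, only Cd200 of the members of these lists passed the limma test, and only with the pair as a block.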

How the data were processed

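Total RNA of 2 control and 2 AID-silenced clones was measured on 1 array each. Per the submitters' processing notes, MAS5 gave the deposited intensities, and no other detail of the processing is given in the sources used here. From the 45101 probe sets, 64 control probe sets were left out. The platform annotation gave 34958 probe sets 1 symbol, 932 several and left 9211 unlisted, and 34754 matched RefSeq genes of GRCm38.p6, used for names, chromosome and gene order. No build is named for the arrays, so coordinates are given for promoters only.

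Signals were taken as log2(signal + 16). The 22519 probe sets at or above the median of the mean entered limma 3.58.1 (lmFit and eBayes, trended and robust prior, R 4.3.3), with Benjamini-Hochberg adjustment over them and a threshold of 0.05. P-values measure the spread between clones, and 2 arrays a group limit the precision. Step fits minimised absolute deviations along gene order, with at least 15 genes a segment, or at least 10 with the number of breaks, up to 6, set by a Laplace information criterion. Both steps were tested on simulated data. The titles and the series text name the clones as pairs without stating what is shared, and on that basis pair differences were taken; pair 2 minus pair 1 correlated between control and AID-silenced clones over 22519 probe sets (r = 0.306, rho = 0.336). The pair entered limma as a block only as an alternative. Other alternatives were quantile and median scaling, pseudocounts of 1 and 64, no filter, a filter at the 0.75 quantile, the mean of a gene's probe sets, other window and segment lengths, and leaving out each clone.

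The members and lists were chosen with earlier results of these data known. Genes were named if past the limma threshold, if among the 12 in each direction with the largest smaller pair difference, if opposite and at least 2-fold apart in both pairs, if beside an end, or if among the first 3 of a list; other genes, such as those given as examples of a region, were picked with their values in view. The regions, the number of breaks and their leave-one-out values were added after seeing the data. Figures were drawn with matplotlib 3.10.9.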

Additional observations from a re-analysis of the deposited data

Results flagged for a closer look

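Itgb5 differed by 2.01 in pair 1 and -1.84 in pair 2, opposite ways under the same contrast, and the difference between the pairs was not tested. Cbr3 differed by 1.05 in pair 1 and -1.88 in pair 2, which was not tested either. The 29 genes from Pigz to Ropn1 had a median of 0.24 in pair 1 and -0.37 in pair 2, and the 34 genes from Cfap298 to Ttc3 had 0.49 and -0.41. With 1 clone of each kind in a pair, these differences between pairs were not tested.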

How the results depend on the processing

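The median of the chromosome 16 genes stayed above 0 in both pairs under the 7 alternatives that keep all clones. In pair 1, where it was 0.30, it was 0.22 with no low-signal filter, 0.28 with a pseudocount of 64 and 0.34 above the 0.75 quantile of signal. In pair 2, where it was 0.27, it was 0.14 with no filter, 0.24 with a pseudocount of 64 and 0.23 with median scaling. The group difference, 0.27, was 0.20 with no filter, 0.24 with a pseudocount of 64, and 0.22 to 0.31 when each clone was left out. Over these alternatives 42.2% to 58.6% of the genes were higher in both pairs. The count of members past the limma threshold, 0, was 1 with the pair as a replicate block and 0 to 4 when each clone was left out, and the count of all probe sets, 2, was 0 with the mean of a gene's probe sets, 8 with the block and 0 to 146 when each clone was left out. The block with a clone left out has no residual degrees of freedom and was not fitted.

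Ends are given as a gene's place among the 592 measured. The single break of pair 1, at place 124, fell at 308 with the mean of probe sets and at 38 with no filter. The second of its 2 breaks, at 114, fell at 83 with quantile normalization, and that of pair 2, at 293, at 578 with no filter. With no filter the criterion kept 1 break, against 5, in pair 2, and 1, against 3, between the control clones. The medians of pair 2 stayed below 0 from Pigz to Ropn1 (-0.41 to -0.22) and from Cfap298 to Ttc3 (-0.45 to -0.28). Of 66 named genes, the group difference of 19 changed sign when a clone was left out. Of these 17 were among the 34 named only for lying beside an end or for opposite pairs, such as Itgb5 (-1.04 to 1.21) and Cbr3 (-1.62 to 0.80). The others were Ccdc116 (-0.38, with a range from -0.78 to 0.026) and Tfrc (-0.38, from -1.33 to 0.57). The cause of these changes was not tested.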

Other observations

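In some chromosome 16 genes both clones of 1 pair lay above both clones of the other. Mx1, an interferon-induced GTPase, had signals of 31.5 in the control and 39.8 in the AID-silenced clone of pair 1, and 164 and 202 in those of pair 2. Samsn1, an adaptor protein of haematopoietic cells, had 97.3 and 223 in pair 1 and 30.6 and 64.9 in pair 2, so it was higher in pair 1 and, within each pair, in the AID-silenced clone. Both genes were picked after their values were seen.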
